A study of Mus musculus with 6 samples.

Results

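Nitric oxide synthases make the gas nitric oxide from arginine, and the cyclic GMP kinases act downstream of it. To examine this signalling route in N2A mouse neuroblastoma cells, 7 genes were followed: the synthase genes Nos1, Nos2 and Nos3, the synthase adaptor gene Nos1ap, the kinase genes Prkg1 and Prkg2, and the phosphodiesterase gene Pde5a. The genes were named as a family and were given 1 array row each, chosen by the highest mean value over the 6 arrays. All 7 were measured, among 19938 gene symbols in all. The mean level that chose the rows is therefore a description only, and levels are not compared between genes because probes differ in brightness.

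The knockdown cells carried a short hairpin RNA (shRNA) construct against Pou3f3, a class III POU transcription factor gene, and the control cells carried a non-targeting vector. Both groups were the same cell line under transient transfection, with RNA taken 2.5 days later and 3 biological replicates hybridised per group to Affymetrix Mouse Gene 1.0 ST arrays. Which of the Pou3f3 hairpins was transfected is not stated in the labels, and cells that took up no vector were not separated from those that did. All values are log2 array values, and differences are knockdown minus control. A gene was called at a limma adjusted p below 0.1 with a change of at least 1.3-fold.

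Nitric oxide made by a synthase activates soluble guanylate cyclase, and the cyclic GMP that this enzyme forms switches on the cyclic GMP dependent protein kinases. Neurons mainly use the calcium-dependent synthase encoded by Nos1, whereas Nos2 is the inducible form known from macrophages and Nos3 the form of blood vessel lining cells. Phosphodiesterase 5, encoded by Pde5a, ends the signal by breaking down cyclic GMP.

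In Pou3f3 knockdown cells the neuronal synthase gene Nos1 fell, and Prkg1, which encodes the type I cyclic GMP kinase, rose. The other 5 genes did not pass the test. Of the 7 genes, 1 was called higher and 1 lower, against 1.35% of all symbols called higher, 0.657% called lower and 2.01% called in either direction. These 7 genes were put together with earlier results of the same arrays known, so that the count is not independent evidence for the family.

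The sequences before the annotated starts of both called genes are shown as context for the named genes, since a POU factor acts on DNA and these arrays measure no binding. They come from RefSeq on the build GRCm38.p6, and each is the 250 bases before a start, written 5′ to 3′ with CG dinucleotides in capitals. The set of windows used here held 4 of the 7 genes (6 windows in all) and need not cover every annotated start. The Nos1 window lies at chr5:117866589-117866838 on the plus strand. The windows of Prkg1, which has a pair of listed starts, lie at chr19:31664371-31664620 and chr19:31765034-31765283 on the minus strand.
Nos1: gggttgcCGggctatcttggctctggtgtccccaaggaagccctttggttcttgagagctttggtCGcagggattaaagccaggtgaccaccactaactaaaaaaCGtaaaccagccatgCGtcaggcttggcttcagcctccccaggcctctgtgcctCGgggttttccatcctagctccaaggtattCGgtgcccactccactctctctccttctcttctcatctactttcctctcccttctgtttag
Prkg1, first window: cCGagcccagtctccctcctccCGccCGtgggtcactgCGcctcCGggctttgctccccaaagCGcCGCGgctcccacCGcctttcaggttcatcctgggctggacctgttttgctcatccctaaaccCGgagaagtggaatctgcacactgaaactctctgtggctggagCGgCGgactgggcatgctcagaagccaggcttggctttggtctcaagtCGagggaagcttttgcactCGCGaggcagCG
Prkg1, second window: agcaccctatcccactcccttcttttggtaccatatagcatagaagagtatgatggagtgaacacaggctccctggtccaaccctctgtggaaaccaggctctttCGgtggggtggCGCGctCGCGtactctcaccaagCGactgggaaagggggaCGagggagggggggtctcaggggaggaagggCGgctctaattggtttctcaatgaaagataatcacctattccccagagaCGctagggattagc

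The Nos1 window held 6 CG dinucleotides, which is also the median over 32851 windows of the same length (quartiles 2 and 16). Nos1 is known to have alternative first exons, and its window ends in a run of C and T followed by ag, letters that are also common just before internal exons. The study describes a CpG island only at the most upstream group of Nos1 starts, and whether this window lies there was not tested. Whether these bases serve as a promoter in N2A cells was not tested either. The Prkg1 windows held 16 and 9, more than 74.6% and 59.7% of all windows. Just downstream of the Nos1 start, bases 15 to 35 of the annotated transcript matched the reverse primer that the study designed for Nos1 exon 1, agatgcagaggtgatgtaggg, which lies on the opposite strand. Its forward partner was not found in the bases searched. Neither the octamer ATGCAAAT nor the arrangement of CAT and TAAT with 0, 2 or 3 bases between them (CATTAAT or CATNNTAAT, for example, which can overlap each other) occurred on either strand in any of the 6 windows. The octamer occurred in 1.6% and the second arrangement in 6.02% of all windows. An absent match says only that these letters are not in these bases.

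Nos1 had values of 9.04, 8.91 and 8.83 in knockdown replicates 1 to 3, against 9.37, 9.42 and 9.40 in the control replicates. All 3 knockdown arrays lay below all 3 control arrays, with a gap of 0.33 between the nearest arrays of the groups. Groups failed to overlap for 26.0% of all symbols. The Nos1 mean was 8.93 ± 0.11 in knockdown cells and 9.39 ± 0.02 in control cells (SD, n = 3 each), a difference of -0.47 ± 0.07 (SE, 95% confidence interval -0.63 to -0.30), which corresponds to a level 27.6% lower (limma adjusted p = 0.0192). The knockdown arrays had a larger SD than the control arrays, and the differences between arrays of the same number were -0.33, -0.51 and -0.57. Nos1 remained called on leaving out each array in turn, with differences between -0.52 and -0.42 (limma adjusted p from 0.0304 to 0.0992). A filter that keeps rows with a variance above the median, as the methods of the study are read here, lost the call when it ran over all rows of the table, named or not (limma adjusted p = 0.264, 12 rows called in all). The same filter over the rows with 1 gene symbol kept it (limma adjusted p = 0.0103, 542 rows called). Both versions called fewer rows than the number of changed genes that the study reports, so neither can be taken as its procedure.

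**Figure D1:**
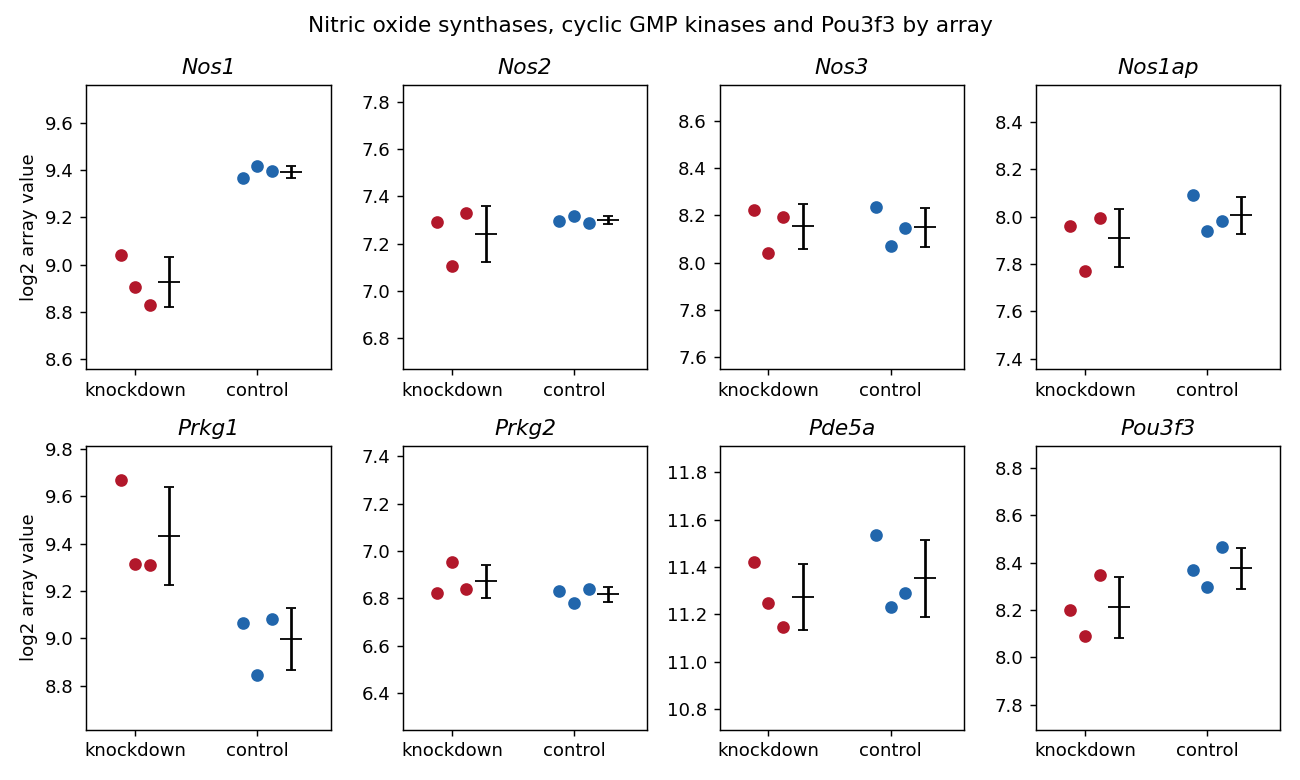
Levels of the 7 genes and of Pou3f3 on a log2 scale (vertical axes of equal span) in knockdown (left) and control cells (right). Each point is 1 array, with replicates 1 to 3 from left to right, and bars are means ± SD (n = 3). The groups are apart for Nos1, lower in knockdown cells, and for Prkg1, higher in knockdown cells, and overlap in the other panels.

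The other synthase genes lay within the spread of the arrays. Nos2 had 7.29, 7.10 and 7.33 in knockdown cells and 7.29, 7.32 and 7.29 in control cells. The second knockdown array was the lowest of the 6, and the ranges of the groups overlapped. The Nos2 difference was -0.06 ± 0.07 (SE, limma adjusted p = 0.673, 95% confidence interval -0.23 to 0.11). Nos3, the endothelial form, had 8.22, 8.04 and 8.19 in knockdown cells and 8.23, 8.07 and 8.14 in control cells. In both groups the second array was the lowest, and the mean was 8.15 ± 0.10 in knockdown cells and 8.15 ± 0.08 in control cells (SD, n = 3 each). The Nos3 difference was 0.00414 ± 0.08 (SE, limma adjusted p = 0.981, interval -0.17 to 0.18).

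Nos1ap encodes an adaptor that competes with the postsynaptic scaffold PSD-95 for the neuronal synthase. On its chosen row it had 7.959, 7.768 and 7.996 in knockdown cells and 8.091, 7.940 and 7.983 in control cells, so that the groups overlapped. The difference of -0.10 ± 0.08 (SE) did not pass (limma adjusted p = 0.515, interval -0.28 to 0.08). A second row of Nos1ap, at a lower mean level, differed by -0.19 ± 0.09 (SE, limma adjusted p = 0.269), with 7.26, 7.32 and 7.55 in knockdown cells and 7.48, 7.56 and 7.68 in control cells.

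Prkg1 had 9.67, 9.31 and 9.31 in knockdown replicates 1 to 3, against 9.06, 8.84 and 9.08 in the control replicates. Each knockdown array lay above each control array, by 0.23 at the nearest, and the first knockdown array was the highest. The mean was 9.431 ± 0.21 in knockdown cells and 8.997 ± 0.13 in control cells (SD, n = 3 each). The difference of 0.43 ± 0.11 (SE, interval 0.18 to 0.68) corresponds to a level 35.1% higher and was close to the threshold (limma adjusted p = 0.0870). Between arrays of the same number it was 0.61, 0.47 and 0.23. The Prkg1 call was less stable than that of Nos1: of 6 fits that each left out an array, 1 kept it, namely that without control replicate 1. The difference was 0.31 without knockdown replicate 1 (limma adjusted p = 0.138), 0.49 without knockdown replicate 2 (limma adjusted p = 0.173) and 0.49 without knockdown replicate 3 (limma adjusted p = 0.119). It was 0.36 without control replicate 2 (limma adjusted p = 0.281) and 0.48 without control replicate 3 (limma adjusted p = 0.164). Cyclic loess also lost it (limma adjusted p = 0.121). The variance filter lost it over all rows of the table (limma adjusted p = 0.340) and kept it over the rows with 1 gene symbol (limma adjusted p = 0.0242).

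Prkg2, which encodes the membrane-bound type II kinase, had 6.82, 6.95 and 6.84 in knockdown cells and 6.83, 6.78 and 6.84 in control cells. The second knockdown array was the highest, and the ranges of the groups overlapped. The difference was 0.06 ± 0.07 (SE, limma adjusted p = 0.654, interval -0.09 to 0.20). A second row of Prkg2 at a lower level had 6.14, 6.10 and 5.95 in knockdown cells and 5.96, 5.79 and 5.84 in control cells, a difference of 0.20 ± 0.08 (SE, limma adjusted p = 0.209). Pde5a had 11.42, 11.25 and 11.15 in knockdown cells and 11.54, 11.23 and 11.29 in control cells. The first array was the highest of both groups, and the difference of -0.08 ± 0.10 (SE) did not pass (limma adjusted p = 0.677, interval -0.31 to 0.15). Of the genes that were not called, all 5 had on their chosen row a 95% interval within the 1.3-fold cut-off in both directions. The cut-off is 0.38 on the log2 scale, and the intervals are not adjusted for the number of genes. This did not hold for the second row of Nos1ap, with an interval of -0.40 to 0.01. The second row of Prkg2 had an interval of 0.02 to 0.37, which excluded 0.

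**Figure D2:**
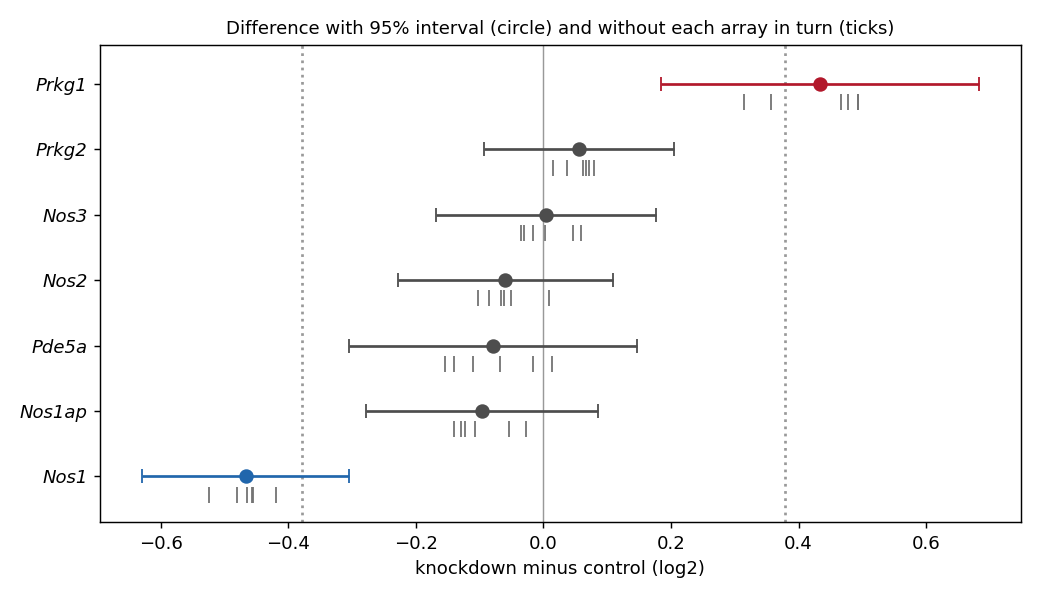
Knockdown minus control difference (horizontal axis, log2) of each of the 7 genes; circles with bars are the difference and its 95% confidence interval, ticks below are the differences on leaving out each of the 6 arrays, and dotted lines mark the 1.3-fold cut-off. Nos1 (-0.47) and Prkg1 (0.43) lie past the cut-off, and Prkg1 has 2 ticks (0.31 and 0.36) inside it.

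The shRNA target Pou3f3 had 8.20, 8.09 and 8.35 in knockdown cells and 8.37, 8.30 and 8.47 in control cells. The groups overlapped, and the difference of -0.16 ± 0.08 (SE) did not pass the test (limma adjusted p = 0.303), so the labelled knockdown is named here from the labels. When replicate numbers were fitted as blocks the limma adjusted p was 0.0880, with a difference still below the fold cut-off. By qRT-PCR, the study reports a lower Pou3f3 level after transient knockdown in N2A cells. The array medians ran from 7.90 to 8.01. In all, 433 of 21789 rows with 1 gene symbol were called, 284 higher and 149 lower. The neuroblastoma and sympathetic neuron markers had mean levels of 10.66 to 13.76 for the 8 of 10 that were measured. Such levels do not tell cell types apart, since the Schwann cell marker Pmp22 lay at 14.14. Of the 8, 1 was called, the noradrenaline-synthesising enzyme gene Dbh (-1.17 ± 0.12, SE, limma adjusted p = 0.00471). Gata3 also had a limma adjusted p below 0.1 (-0.33 ± 0.07, SE, limma adjusted p = 0.0484), but its difference was below the fold cut-off.

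Differences also depended on array level across all genes. Of 10 classes of symbols ordered by mean level, that of Nos1 and Prkg1 (levels 8.56 to 9.48, 1994 symbols) had a median difference of 0.03, with 66 symbols called higher and 23 lower. The classes of Nos2 (levels 7.23 to 7.80), of Nos1ap and Nos3 (levels 7.80 to 8.56) and of Prkg2 (levels 6.64 to 7.23) had medians of -0.09, -0.08 and -0.08, and that of Pde5a (levels 10.93 to 11.74) had 0.04.

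**Figure D3:**
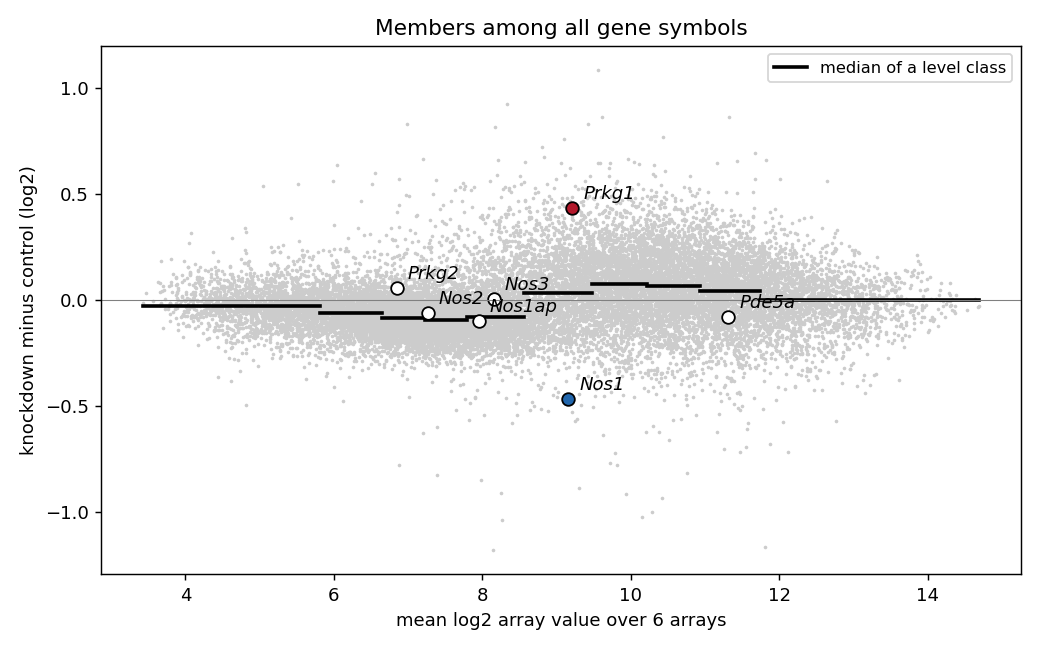
Knockdown minus control difference (vertical axis, log2) against the mean log2 array value over the 6 arrays (horizontal axis) for 19938 symbols (grey points), with the 7 genes as circles (filled where called) and the median of each of 10 level classes as black lines. Nos1 (-0.47) and Prkg1 (0.43) lie on opposite sides of their class median of 0.03.

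The remaining genes of the route were taken from a list ordered by role, of which 73 of 77 were measured. Among the 73, 1 was called lower and 0 higher by limma (4 were higher and 6 lower at an unadjusted p under 0.05). These 10 are 13.7% of the list, beside 19.9% of all rows with 1 gene symbol. An adjusted p below 0.1, irrespective of the fold, was reached by 4 genes of the list (5.48%), beside 4.55% of all symbols. The list median was -0.04 and 52 genes of it lay below 0 (71.2%), beside a median of -0.03 and 57.8% below 0 over all symbols. After cyclic loess the list median was -0.02 with 40 genes below 0 (54.8%), beside 50.4% of all symbols. The groups did not overlap for 22 of the 73 (30.1%, against 26.0% of all symbols).

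The called gene was Cnga3, which encodes a subunit of a cyclic nucleotide gated cation channel, known from cone photoreceptors, that cyclic GMP opens. Cnga3 had 8.55, 8.45 and 8.60 in knockdown cells and 8.96, 8.94 and 9.22 in control cells. Every knockdown array lay below every control array. The difference of -0.51 ± 0.09 (SE) corresponds to a fall to 8.53 ± 0.08 in knockdown cells, against 9.04 ± 0.15 in control cells (SD, n = 3 each, limma adjusted p = 0.0282). The call was lost without knockdown replicate 2 (-0.47, limma adjusted p = 0.129) and with the variance filter over all rows of the table (limma adjusted p = 0.264), but not with that filter over the rows with 1 gene symbol (limma adjusted p = 0.00518). Of the other 13 measured targets of cyclic GMP, among them the potassium channel gene Kcnma1 (-0.09 ± 0.06, SE) and the actin regulator gene Vasp (-0.03 ± 0.07, SE), none was called by limma (1 had an unadjusted p under 0.05).

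Genes that form or break down cyclic GMP were not called by limma (1 of 16 and 2 of 17 had an unadjusted p under 0.05, beside 19.9% of all rows). The subunit genes of soluble guanylate cyclase, the receptor of nitric oxide, differed by -0.19 ± 0.09 (SE, Gucy1a1), -0.01 ± 0.09 (Gucy1a2), -0.06 ± 0.09 (Gucy1b1) and -0.16 ± 0.09 (Gucy1b2). The groups overlapped for the first 3 of these and were apart by 0.01 for Gucy1b2. Of 16 cyclase, natriuretic peptide and receptor genes, 15 lay below 0 with a median of -0.16, and 11 lay below 0 with a median of -0.09 after cyclic loess. The mean level of 13 of the 16 was under 8.56, where the medians of the level classes over all symbols ran from -0.09 to -0.03. Whether array level accounts for the median of the 16 genes was not tested. Nppa, the gene of atrial natriuretic peptide, had the largest difference of these (-0.22 ± 0.10, SE, limma adjusted p = 0.271). Of 17 genes of breakdown and export, 14 lay below 0 with a median of -0.09, and 12 lay below 0 with a median of -0.04 after cyclic loess. Pde9a, which encodes a phosphodiesterase specific for cyclic GMP, had 9.18, 9.08 and 9.20 in knockdown cells and 9.43, 9.37 and 9.52 in control cells. Its groups did not overlap, and its difference of -0.29 ± 0.07 (SE, limma adjusted p = 0.0780) was below the fold cut-off.

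Around the synthases themselves, 13 genes of substrate and cofactor supply had a median of 0.03 without a call. Ddah2, whose product is counted among the enzymes that break down methylated arginines, inhibitors of the synthases, had 11.27, 11.49 and 11.50 in knockdown cells and 10.93, 11.03 and 11.25 in control cells, a difference of 0.35 ± 0.10 (SE, limma adjusted p = 0.113). The groups were apart by 0.02. Gchfr, which encodes a regulator of the first enzyme of tetrahydrobiopterin synthesis, differed in the other direction, with 10.34, 10.74 and 10.75 in knockdown cells and 10.89, 10.91 and 11.06 in control cells (-0.34 ± 0.11, SE, limma adjusted p = 0.151, groups apart by 0.14). The 10 measured partners of the synthases had a median of -0.00376, and among them the calmodulin gene Calm3 was farthest from 0 (0.33 ± 0.08 SE, adjusted p = 0.0711 by limma), below the fold cut-off. The scaffold gene Dlg4, which encodes PSD-95, differed by -0.00472 ± 0.07 (SE). Of 3 genes of nitric oxide removal, Adh5, which encodes the enzyme that reduces S-nitrosoglutathione, differed by 0.35 ± 0.09 (SE, limma adjusted p = 0.0936), again below the fold cut-off.

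**Figure D4:**
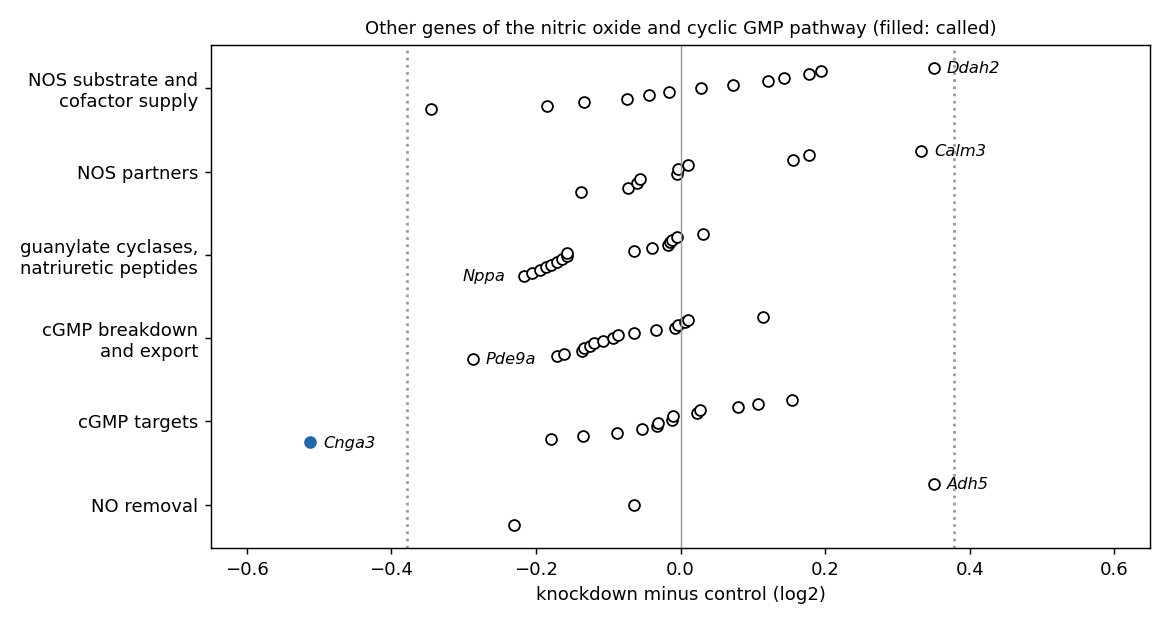
Knockdown minus control difference (horizontal axis, log2) of 73 other genes of the nitric oxide (NO) and cyclic GMP (cGMP) route, a circle per gene, in rows by role with vertical offsets only to separate the points; NOS is nitric oxide synthase and dotted lines mark the 1.3-fold cut-off. Cnga3 (-0.51) is the filled circle, and the other 72 lie between -0.34 and 0.35.

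Markers of cells in which these genes are known to be active were also examined. None of the 8 endothelial markers (median difference -0.15) and none of the 8 macrophage markers (median -0.05) was called by limma (3 and 0 had an unadjusted p under 0.05, beside 19.9% of all rows). The log2 of their summed linear values ran from 11.84 to 12.02 in knockdown and 11.96 to 12.13 in control cells for endothelial markers, and from 9.72 to 9.84 in knockdown and 9.76 to 9.87 in control cells for macrophage markers. Of the 6 smooth muscle markers, Des, which encodes the filament protein desmin, rose by 0.39 ± 0.10 (SE, limma adjusted p = 0.0797). The other 5 smooth muscle markers lay below 0, and the summed level ran from 10.43 to 10.57 in knockdown and 10.43 to 10.46 in control cells. Smooth muscle uses Prkg1, but every array here came from cultures of the N2A line. A link between the rises of Des and Prkg1 was not tested. The marker lists describe transcripts of this line and do not count cells.

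The genes whose 6 array values, after subtraction of their own mean, came closest to those of Nos1 were Vps37a, a subunit gene of an endosomal sorting complex (root mean square difference 0.04 on the log2 scale), the non-coding transcript Lncenc1 (0.04), the antiproliferative gene Btg2 (0.05), the acyl-CoA dehydrogenase gene Acad11 (0.05) and the predicted gene Gm11149 (0.05). All 5 fell, by 0.38 to 0.44. Closest to Prkg1 were the minor spliceosome gene Snrnp48 (0.03), the splicing factor gene Luc7l (0.05), the kinase gene Rps6ka5 (0.06), Uhrf2, whose product binds hemimethylated DNA (0.06), and the RNA methyltransferase gene Nsun6 (0.06). Snrnp48, Uhrf2 and Nsun6 rose, by 0.45, 0.51 and 0.44, whereas Luc7l and Rps6ka5 differed by 0.36 and 0.34 without passing. This likeness was taken over the 6 arrays of both groups. Genes chosen in this way share the direction of the called gene by selection, so their differences are a description only.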

How the data were processed

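Total RNA of 3 knockdown and 3 control cultures was hybridised to 1 array each. The authors used RMA for background correction, followed by quantile normalisation and a summary of probes per gene, and deposited the log2 values. Quantile normalisation hides a change shared by most genes. The submitters' processing notes name RMA and limma with no version. For the array design, a genome build was not given in the sources used here. The number of arrays limits the precision, and p-values measure the spread between transfections of 1 cell line.

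Gene names came from the platform annotation: 21789 of 35556 rows had 1 symbol, 1621 had several and 12146 were not listed. Rows with several symbols were not used. Where a symbol had several rows, that of the highest mean over the 6 arrays was taken. All rows with 1 symbol were fitted in R 4.3.3 with limma 3.58.1 (lmFit, eBayes, no block, two-sided), p-values were adjusted over these rows by the Benjamini-Hochberg procedure, and calls needed an adjusted p under 0.1 and 1.3-fold. The methods of the study filter on variance first (0.5, read here as a quantile), which was used as an alternative over all rows of the table and over the rows with 1 symbol. The fit was tested on simulated arrays with planted changes and noise drawn independently for each array. That simulation lacked deviations shared between arrays, so it does not bear on the calls reported here.

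The members, lists, test and alternatives were chosen with earlier results of these data known. The genes named are the 7 members, Pou3f3, the called genes of the list (or, in a role without a call, the gene with the largest difference), called markers of other cell types and the 5 symbols most like each called member. Vasp, Kcnma1, Dlg4, Gchfr, Gata3, Pmp22, the soluble cyclase subunits and Dbh were named after their values were seen. Replicate numbers are shared between the groups. Deviations from the group means correlated between arrays of the same number by 0.64, 0.31 and 0.29 over rows with 1 symbol. Knockdown replicate 1 correlated with control replicates 2 and 3 by -0.48 and -0.43. Deviations from a group mean cancel within the group. Values that are negative on balance therefore follow from the 0.64 and are not separate evidence of pairing. Knockdown replicate 2 correlated with control replicate 3 by 0.22, and knockdown replicate 3 with control replicate 2 by 0.25. Pairing of replicates 2 and 3 is therefore not settled. The main fit had no block, and replicate blocks were used as an alternative. Marker lists of astrocytes and Schwann cells had medians of -0.11 each and no call by limma (0 and 1 at an unadjusted p under 0.05).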

Additional observations from a re-analysis of the deposited data

How the results depend on the processing

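The fall of Nos1 and the rise of Prkg1 kept their direction under all 14 alternatives, and calls were kept by Nos1 under 13 and by Prkg1 under 7. Testing all rows of the table, named or not, with a variance above the median called 12 rows in all, 0 members and 0 genes of the pathway list, with Nos1 at -0.47 and Prkg1 at 0.43, whereas the same filter over the rows with 1 gene symbol called 542 rows, 2 members and 1 pathway gene. Cyclic loess left 1 member called, with Prkg1 at 0.42, placed Nos2 at 0.0190 and moved the split of calls to 232 higher and 193 lower, against 284 and 149. On leaving out each array in turn, between 147 and 611 rows were called (147 without knockdown replicate 2, 161 without control replicate 2 and 219 without control replicate 3), 1 or 2 members and 0 to 2 pathway genes (Ddah2 in addition, 0.42, without knockdown replicate 1). The ranges were -0.52 to -0.42 for Nos1, 0.31 to 0.49 for Prkg1, -0.103 to 0.00884 for Nos2, -0.0357 to 0.0595 for Nos3 and -0.154 to 0.0132 for Pde5a, so that the last 3 changed sign. The replicate block called 544 rows and changed no call of a member or pathway gene (Nos1 adjusted p = 0.00344, Prkg1 adjusted p = 0.00813, Cnga3 adjusted p = 0.00228, limma). The causes of these shifts were not tested. Filters left Nos1ap, Nos2, Nos3 and Prkg2 untested in 3 alternatives each, and Pou3f3 and Nppa in 1 each.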
